A study of Mus musculus with 6 samples.

Results

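The class 3 PI3K complex subunits are 8 genes, Pik3r4, Pik3c3, Becn1, Atg14, Nrbf2, Ambra1, Uvrag and Rubcn, chosen by name and found by Ensembl identifier among the 56305 genes of the table. Their transcripts were measured by poly(A) RNA-Seq in the livers of 3 WT and 3 Vps15LKO mice, with 1 library per mouse. Vps15LKO mice are AlbCre+;Vps15 f/f, in which Cre is driven by the albumin promoter, active in hepatocytes. Deletion of Vps15 by cell type was not measured here. The mice of both groups were males of 5 weeks on chow ad libitum, collected at ZT6, that is 6 h after lights on. The Cre and floxed alleles of the WT controls of this line are not given in the sources used here.

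Class 3 PI3K makes the lipid PI3P on intracellular membranes. Vps34 (Pik3c3) is the lipid kinase, Vps15 (Pik3r4) is the pseudokinase that holds and stabilizes it, and Beclin 1 (Becn1) is the scaffold on which the accessory subunits sit. With Atg14 the core forms complex I, which starts autophagosomes, helped by Nrbf2 and by Ambra1, a Beclin 1 partner. With Uvrag in the place of Atg14 it forms complex II, which acts on endosomes, and Rubicon (Rubcn) binds complex II and holds it back. In hepatocytes the enzyme is needed for autophagy and endosomal sorting.

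In normalized counts (reads per gene divided by 1 DESeq2 size factor per library), 5 of the 8 genes were lower in Vps15LKO liver: Atg14, Uvrag, Pik3r4, Nrbf2 and Pik3c3, with log2 fold changes from −0.83 to −0.39, while with all libraries set to 1 common read total (total-read scaling) none of them was called lower and Pik3c3 was called higher. Becn1, Ambra1 and Rubcn were not called (log2 fold changes of −0.20, −0.10 and −0.08), but were called higher with total-read scaling. Calls required an adjusted p under 0.05 (limma, Benjamini-Hochberg over 15430 tested genes) and a change of at least 1.2-fold. By this rule 33.0% of all tested genes were called lower and 33.5% higher, so the 5 lower and 0 higher members stand beside a table in which most genes moved. The groups did not overlap for 6 of the 8 members and for 73.2% of all tested genes. With total-read scaling, 0 members were called lower and 4 higher, beside 11.1% and 66.8% of all genes.

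The scalings differ because the size factors were 0.742 to 0.801 in WT and 1.23 to 1.41 in Vps15LKO libraries, although the reads counted on genes were alike, 16137093 to 18110223 per library. Total-read scaling moved the log2 fold change of the median gene from −0.02 to 0.70. Both scalings multiply each library by 1 number, so a gene's distance from the median gene is nearly the same under either by construction. That distance ran from −0.81 (Atg14) to −0.06 (Rubcn) over the 8 members and was −0.52 for Pik3r4. All 8 members thus lay below the median gene in normalized counts, but 5 did with quantile normalization, where Becn1, Ambra1 and Rubcn lay above it, and 6 did when tested genes needed 20 normalized counts in every liver, where Ambra1 and Rubcn lay above it. The members' own median was −0.44 in normalized counts and 0.28 with total-read scaling.

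**Figure D1:**
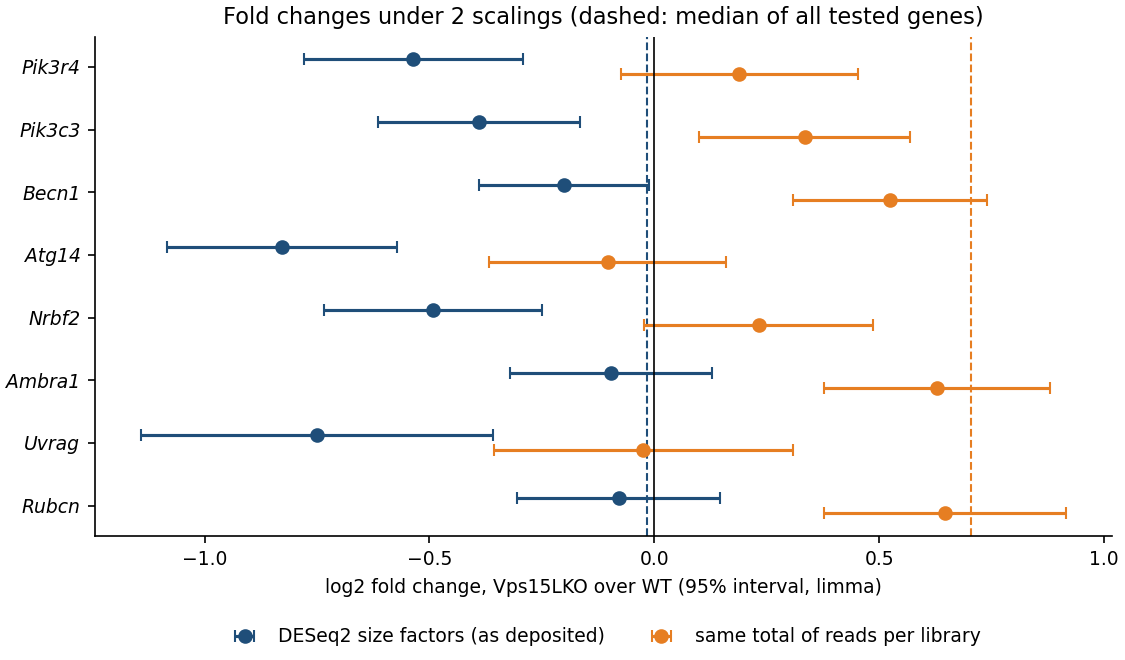
log2 fold change of each member (Vps15LKO over WT, 3 livers each) with its 95% interval from limma, in normalized counts (blue) and with total-read scaling (orange). Dashed lines are the medians of all tested genes, −0.02 and 0.70, and every member lies to the left of the line of its colour, at a distance that is nearly the same for both by construction.

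Pik3r4, the targeted gene, (ENSMUSG00000032571) lies at chr9:105642978-105687657 of GRCm38 (plus strand). Normalized counts were 508, 573 and 459.7 in WT and 341, 362 and 355 in Vps15LKO livers. Every Vps15LKO liver was below every WT liver on this scale, at 353 ± 11.0 against 514 ± 57.1 (SD, n = 3 each). The log2 fold change was −0.54 (95% interval −0.78 to −0.29, adjusted p = 0.0021 in limma). As a share of the library, however, Pik3r4 took 21.5, 25.3 and 21.1 reads per 1000000 reads counted (RPM) in WT and 24.9, 24.7 and 27.8 in Vps15LKO livers. On that scale the groups overlapped, the log2 fold change was 0.19 (95% interval −0.07 to 0.45), and the adjusted p in limma was 0.164, beside a range of 0.00025 to 0.164 over all alternatives tried. The count covers all exons of the gene, and the part that Cre removes was not counted apart, so this value does not check the deletion.

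Markers of the cell types of the liver moved with the genotype. Of all tested genes, 33.0% were called lower and 33.5% higher in normalized counts, and 11.1% and 66.8% with total-read scaling. The sum of 10 hepatocyte markers ranged from 3180773 to 3527661 normalized counts over the WT livers and from 1035468 to 1535937 over those of Vps15LKO mice, with 8 of the 10 called lower under both scalings. Most of that sum came from the 2 markers that were not called, Alb (2183718 ± 160227 against 792222 ± 174159) and Tf (387371 ± 10499 against 249518 ± 37494; SD, n = 3 each). For both, every Vps15LKO liver was below every WT liver. Their 95% intervals of the log2 fold change in limma were nevertheless wide, −4.64 to 1.67 for Alb and −1.98 to 0.69 for Tf. The sums of 10 macrophage markers (8664 to 9674 against 25177 to 30169), 10 stellate cell markers (7095 to 7597 against 30561 to 36135) and 8 cholangiocyte markers (1278 to 1439.7 against 12544 to 24132) were higher, with 8, 10 and 8 called higher (9, 10 and 8 with total-read scaling). Most of the cholangiocyte sum in Vps15LKO livers was Spp1, at 14767 ± 5184 against 551 ± 53.4 (SD, n = 3 each), singled out, like Alb and Tf, after its values were seen. Lymphocyte markers summed to 116 to 155 against 314 to 371, with 5 of the 6 tested called higher under both scalings. In WT livers the cholangiocyte markers Cftr and Tspan8 and the lymphocyte markers Cd3e, Cd3g, Cd8a and Nkg7 had means below 20 normalized counts. They reached the floor for testing, 20 normalized counts in 3 livers, only with the Vps15LKO livers, where they were high. Endothelial markers summed to 6525 to 7151 against 5345 to 6947, with 4 of 8 called lower and 4 higher in normalized counts, and 0 lower and 5 higher with total-read scaling. None of these markers was at 0 reads in any library. Fewer cells of a type and less RNA per cell cannot be told apart in whole liver, and the part of these cells in the members' values was not tested.

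**Figure D2:**
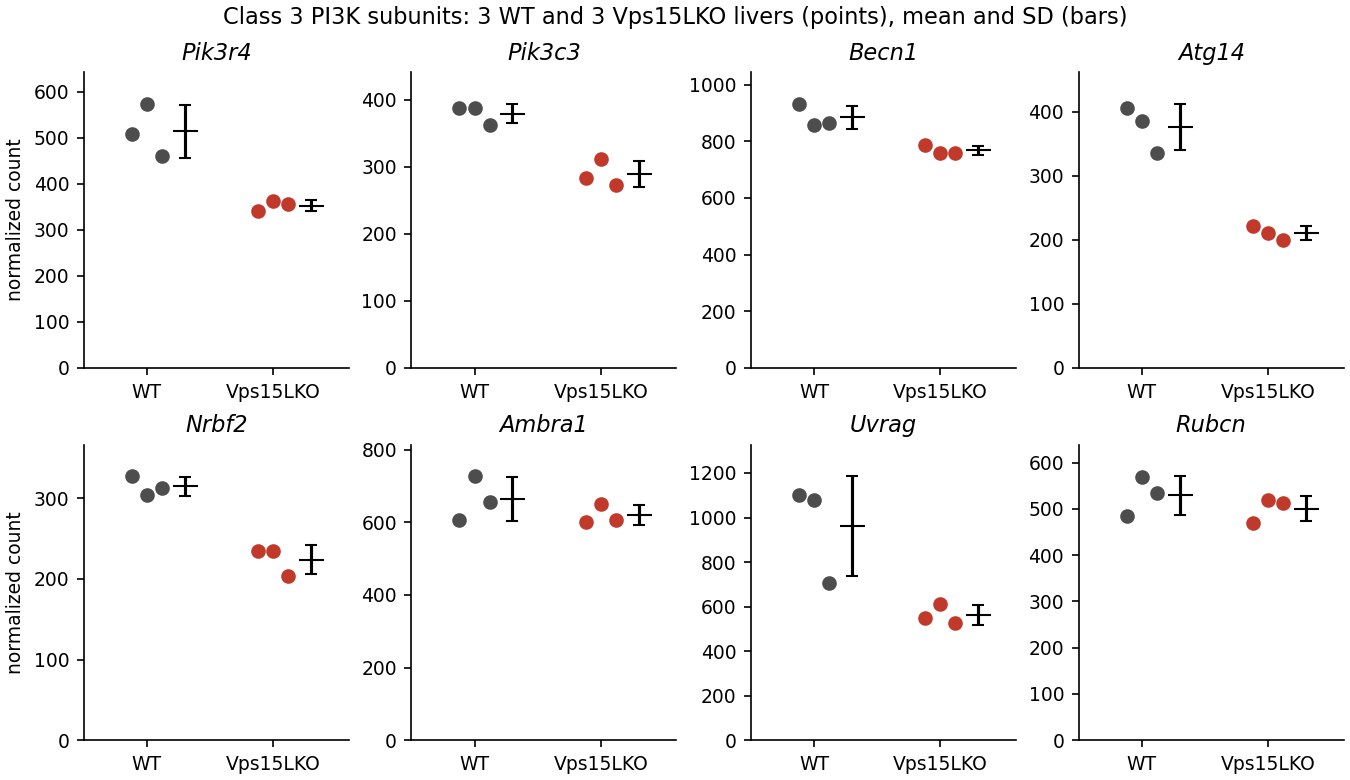
Normalized counts of the 8 members (vertical axes, from 0) in each of 3 WT (grey) and 3 Vps15LKO (red) livers, with the mean and SD beside the points. The groups are apart for Pik3r4, Pik3c3, Becn1, Atg14, Nrbf2 and Uvrag and overlap for Ambra1 and Rubcn, and the WT liver with 705 normalized counts of Uvrag lies well below the other WT livers.

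Among the core partners of Vps15, the kinase gene Pik3c3 (ENSMUSG00000033628, chr18:30272747-30348126, plus strand) had 389, 387 and 363 normalized counts in WT and 284, 311 and 274 in Vps15LKO livers. The Vps15LKO livers were all lower, at 289.7 ± 19.3 against 379 ± 14.6 (SD, n = 3 each), a log2 fold change of −0.39 (95% interval −0.62 to −0.16, adjusted p = 0.0074 in limma). In RPM the order turned: the WT livers had 16.5, 17.1 and 16.7 and the Vps15LKO livers 20.7, 21.2 and 21.4. The groups did not overlap in that direction either, and Pik3c3 was called higher with total-read scaling (log2 fold change 0.33, adjusted p = 0.014 in limma, with 0.0019 to 0.033 over all alternatives). The direction of the Pik3c3 transcript thus depended on the scaling.

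The scaffold gene Becn1 (ENSMUSG00000035086, chr11:101285952-101302286, minus strand) had 641 to 1075 reads per library. Its normalized counts were 932, 858 and 864 in WT and 787, 759 and 760.3 in Vps15LKO livers. These groups did not overlap, but the difference was small, with a log2 fold change of −0.20 (95% interval −0.39 to −0.01, adjusted p = 0.058 in limma). It missed both thresholds, an adjusted p under 0.05 and a change of at least 1.2-fold. With upper-quartile scaling Becn1 was called lower (−0.30), and with total-read scaling it was called higher (0.52, adjusted p = 0.00071 in limma), with adjusted p from 0.00071 to 0.703 over all alternatives. Becn1 shares 3104 bp of exon with Cntd1 on the other strand, which had 307 to 540 reads per library, and whether reads were assigned by strand is not given in the sources used here.

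In complex I, Atg14, the subunit that directs the kinase to forming autophagosomes (ENSMUSG00000037526, chr14:47540893-47570649, minus strand), had the largest fall of the 8 members in normalized counts over all 6 livers. Normalized counts of Atg14 were 406, 386 and 336 in WT and 221, 211 and 200.2 in Vps15LKO livers. The lowest WT liver was far above the highest Vps15LKO liver, and the means were 376 ± 36.1 and 211 ± 10.7 (SD, n = 3 each). The log2 fold change was −0.83 (95% interval −1.08 to −0.57, adjusted p = 0.00023 in limma). In RPM the livers overlapped, with 17.2, 17.1 and 15.4 in WT and 16.2, 14.4 and 15.7 in Vps15LKO, and the log2 fold change with total-read scaling was −0.10 (95% interval −0.37 to 0.16). Atg14 shares 239 bp of exon with the antisense gene Gm49004, which had 33 to 48 reads per library.

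Nrbf2, which binds Atg14 within complex I (ENSMUSG00000075000, chr10:67266689-67285305, minus strand), had 328, 305 and 313 normalized counts in WT and 234, 234 and 204 in Vps15LKO livers. All Vps15LKO livers were lower, by a log2 fold change of −0.49 (95% interval −0.73 to −0.25, adjusted p = 0.0032 in limma). In RPM they were all higher, with 13.9, 13.5 and 14.4 in WT and up to 17.1 in Vps15LKO livers, though Nrbf2 was not called with total-read scaling (log2 fold change 0.23, 95% interval −0.02 to 0.49).

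Ambra1 (ENSMUSG00000040506, chr2:91730134-91918849, plus strand), which links Beclin 1 to the ULK1 kinase complex upstream, had 607, 727 and 656 normalized counts in WT and 600.2, 652 and 606 in Vps15LKO livers. The groups overlapped, and the interval of the log2 fold change, −0.32 to 0.13, held 0. With total-read scaling Ambra1 was called higher, from 25.7, 32.1 and 30.2 RPM in WT to 43.8, 44.4 and 47.5 in Vps15LKO livers (log2 fold change 0.63, adjusted p = 0.00058 in limma, with 0.00058 to 0.911 over all alternatives).

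In complex II, Uvrag (ENSMUSG00000035354, chr7:98885021-99141141, minus strand) had 1102, 1080.5 and 705 normalized counts in WT and 547, 613 and 525 in Vps15LKO livers. The groups were apart, but WT replicate 3 was closer to the Vps15LKO livers than to the other WT livers, which gave Uvrag the widest spread of the members, 962 ± 223 against 562 ± 46.2 (SD, n = 3 each). The log2 fold change was −0.75 (95% interval −1.14 to −0.36, adjusted p = 0.0043 in limma) and −0.96 without WT replicate 3. In RPM WT replicate 3 (32.4) was below all Vps15LKO livers (39.9 to 41.8) and the other WT livers were above them (46.7 and 47.8), and the log2 fold change with total-read scaling was −0.02 (95% interval −0.36 to 0.31). Uvrag shares 1589 bp of exon with the antisense gene Gm45187, which had 54 to 98 reads per library.

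Rubcn, the inhibitor bound to complex II (ENSMUSG00000035629, chr16:32821703-32877766, minus strand), had 485, 568 and 534 normalized counts in WT and 469, 519 and 513 in Vps15LKO livers. The groups overlapped and the interval of the log2 fold change, −0.30 to 0.15, held 0. In RPM the Vps15LKO livers were all higher, with 34.2, 35.4 and 40.2 against 20.6, 25.1 and 24.5, and Rubcn was then called higher (log2 fold change 0.65, adjusted p = 0.00075 in limma, with 0.00075 to 0.846 over all alternatives). Rubcn shares 171 bp of exon with Fyttd1 on the other strand, which had 368 to 587 reads per library.

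Ratios between members of one library do not depend on its size factor, and 6 were compared, chosen with earlier results of these data known. The log2 ratio of Rubcn to Uvrag, the inhibitor over its complex II partner, was −1.18, −0.93 and −0.40 in WT and −0.22, −0.24 and −0.03 in Vps15LKO livers. All Vps15LKO livers were higher, by 0.67 ± 0.24 (standard error), and by 0.50 to 0.89 with each liver left out in turn (the lowest without WT replicate 1, the highest without WT replicate 3). The log2 ratio of Nrbf2 to Atg14 was −0.31, −0.34 and −0.10 in WT and 0.08, 0.15 and 0.03 in Vps15LKO livers. It was higher in the Vps15LKO livers by 0.34 ± 0.08 (standard error), with no overlap, so Atg14 was lower relative to Nrbf2 in every Vps15LKO liver. The log2 ratio of Pik3r4 to Becn1 was −0.87, −0.58 and −0.91 in WT and −1.21, −1.07 and −1.10 in Vps15LKO livers, lower by 0.33 ± 0.11 (standard error) with no overlap.

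Against the mean of the other 7 members, some of which had larger and some smaller falls in normalized counts than the targeted gene, Pik3r4 was at −0.12, 0.03 and −0.13 in WT and −0.25, −0.22 and −0.14 in Vps15LKO livers on the log2 scale. These groups came within 0.01 of each other, and the difference was −0.13 ± 0.06 (standard error), or −0.08 without WT replicate 2. The log2 ratio of Pik3r4 to Pik3c3, regulatory over catalytic subunit, overlapped, at 0.39, 0.57 and 0.34 against 0.26, 0.22 and 0.37, a difference of −0.15 ± 0.08 (standard error), or −0.08 without WT replicate 2. The log2 ratio of Atg14 to Uvrag, the subunits that take turns on Beclin 1, also overlapped, with a difference of −0.08 ± 0.15 (standard error), which was 0.05 without WT replicate 3. In the exact two-sided permutation test over livers, the 4 ratios without overlap reached p = 0.1, the smallest that 3 livers against 3 allow, with an adjusted p of 0.15 over the 6 ratios. The ratio of Pik3r4 to Pik3c3 gave p = 0.2 (adjusted 0.24) and that of Atg14 to Uvrag p = 0.7 (adjusted 0.7) in the same exact test, and no ratio could pass a threshold of 0.05 in this test with 3 livers a group.

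**Figure D3:**
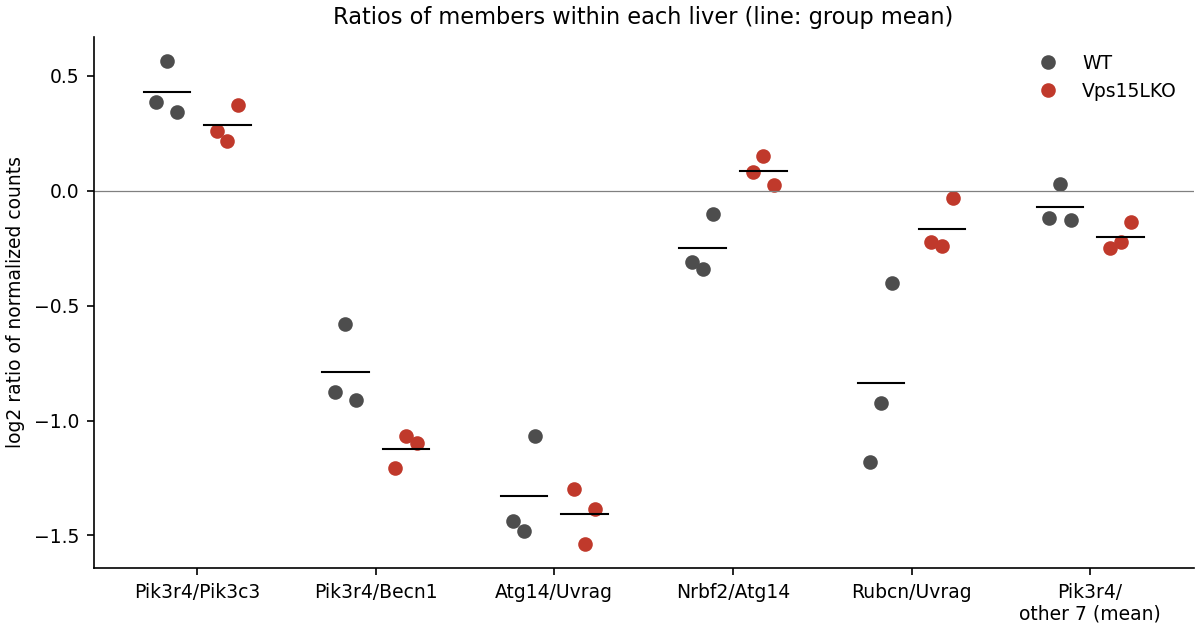
log2 ratio of normalized counts (vertical axis, not corrected for gene length) for 6 pairs or sets of members in each WT (grey) and Vps15LKO (red) liver, with the group means as lines. Rubcn/Uvrag and Nrbf2/Atg14 are higher in every Vps15LKO liver, Pik3r4/Becn1 is lower, and Pik3r4/Pik3c3 and Atg14/Uvrag overlap.

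Because the study concerns Bmal1, which binds E-boxes (CACGTG, the same on both strands), the 300 bases around the RefSeq start of each gene (250 before and 50 after, GRCm38.p6) were searched. The search covered 7 windows for 6 of the members. The promoters of Pik3c3 and Becn1 were not searched, so whether they hold an E-box was not tested. The E-box was found once in 3 windows, those of Atg14, Nrbf2 and 1 of the 2 of Rubcn, and not in those of Pik3r4, Ambra1 or Uvrag. Of the 32851 windows of this length that were searched over all genes, 7.15% held it. The variant CACGTT, searched on both strands (AACGTG on the other), which can overlap an E-box only in part, was in 0 of the 7 windows and in 4.68% of all windows. The matches are shown with 12 bases on either side, in the direction of transcription and with the E-box in capitals, because they are the only matches to the motif in these 7 windows:
Atg14 (chr14:47568418-47568447, minus strand): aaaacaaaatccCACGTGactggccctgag
Nrbf2 (chr10:67285472-67285501, minus strand): gacccggctcatCACGTGacagccgccgcc
Rubcn (chr16:32868437-32868466, minus strand): cgcctagcacatCACGTGtacccaggttag
Relative to the RefSeq start, the E-box began at position −1 in Atg14, −208 in Nrbf2 and −88 in Rubcn. Of these 3 genes Atg14 and Nrbf2 were called lower in normalized counts and Rubcn was not called, while with total-read scaling Atg14 and Nrbf2 were not called and Rubcn was called higher. A match is a run of letters and does not show binding.

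Levels of different genes were compared per kb of annotated exon. In WT liver the order of normalized counts per kb was Nrbf2 (169 ± 6.20), Becn1 (125 ± 5.82), Ambra1 (108 ± 9.83), Uvrag (107 ± 24.7), Atg14 (86.9 ± 8.36), Pik3c3 (85.0 ± 3.27), Rubcn (70.8 ± 5.58) and Pik3r4 (53.2 ± 5.91; SD, n = 3 livers). The ranges of Ambra1 and Uvrag, of Uvrag and Atg14, and of Atg14 and Pik3c3 overlapped, and the other neighbours were apart. The members were mid-level genes: Pik3r4 stood at the 44.6th and Nrbf2 at the 71.5th percentile of 15412 tested genes per kb in WT liver. In Vps15LKO liver the order was Nrbf2 (120.5 ± 9.50), Becn1 (109 ± 2.25), Ambra1 (101 ± 4.58), Rubcn (66.9 ± 3.67), Pik3c3 (64.9 ± 4.33), Uvrag (62.2 ± 5.11), Atg14 (48.8 ± 2.46) and Pik3r4 (36.5 ± 1.14; SD, n = 3). Pik3r4 was last per kb in both genotypes, while Atg14, Uvrag and Pik3c3 stood above Rubcn in the WT order and below it in the Vps15LKO order, where the ranges of Nrbf2 and Becn1, of Rubcn and Pik3c3, and of Pik3c3 and Uvrag overlapped, as did those of Rubcn (62.7 to 69.5) and Uvrag (58.1 to 67.9). Exon length here is the union over all annotated transcripts, which can understate the level of genes with long minor isoforms.

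The genes whose normalized counts followed Pik3r4 most closely over the 6 livers, by Euclidean distance of log2 values from the WT mean among the 11247 others whose mean was 100 normalized counts or more, were Lsm14b (distance 0.056), Wdr24 (0.084) and Ddx47 (0.086). Of the members, Pik3c3 was nearest to Pik3r4 (0.324, rank 540 of the 11247), followed by Nrbf2 (0.333, rank 600), and Rubcn was farthest (0.821, rank 3920).

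The genes that surround the complex in the pathway were counted from 5 lists. In the ULK1 kinase complex, which acts upstream of complex I, all 5 genes were called lower in normalized counts (median log2 fold change −1.01), beside 33.0% of all tested genes, and with total-read scaling 2 of them were lower and 3 not called, beside 11.1% lower. Ulk2, a kinase of this complex, fell from 2164 ± 221 to 913 ± 115 normalized counts (log2 fold change −1.25, adjusted p = 3.7e-05 in limma), and Atg13, its adaptor, from 1593 ± 90.4 to 781 ± 65.3 (−1.03, adjusted p = 3.1e-05; SD, n = 3 each). Both were also called lower with total-read scaling, at −0.52 and −0.30. The ULK1 list lay lower than the class 3 PI3K members in median under both scalings (−1.01 against −0.44, and −0.28 against 0.28), and the difference between the lists was not tested.

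Of 18 tested proteins that bind, hold back or modify the complex, 6 were called lower and 7 higher in normalized counts (median 0.15), shares near the 33.0% and 33.5% of all tested genes. With total-read scaling 0 were called lower and 14 higher, beside 11.1% and 66.8% of all tested genes. Usp10, a deubiquitinase of Beclin 1, fell by 0.97 and Prkaa2, a catalytic subunit of AMPK, fell by 0.81 on the log2 scale (adjusted p = 0.00012 and 0.0011 in limma), though neither was called with total-read scaling. Prkaa1, the other catalytic subunit of AMPK, named after its values were seen, rose by a log2 fold change of 0.56 (adjusted p = 0.0012 in limma), and by 1.28 with total-read scaling. Glipr2, which retains Beclin 1 at the Golgi, rose from 19.5 ± 4.61 to 225 ± 34.9 normalized counts (log2 fold change 3.47, adjusted p = 4.6e-06 in limma). Its WT mean lay below the floor for testing, 20 normalized counts in 3 livers, which it reached only with the Vps15LKO livers. Bcl2l1, the survival factor Bcl-xL that binds Beclin 1, rose from 831 ± 123 to 1419 ± 232 (0.77, adjusted p = 0.0019; SD, n = 3 each), and both Glipr2 and Bcl2l1 were also higher with total-read scaling. Whether the macrophage, stellate and cholangiocyte transcripts given above contribute to the rise of Glipr2 was not tested.

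Downstream, 8 of 21 PI3P-binding proteins were called lower and 5 higher in normalized counts (median −0.08), and 0 lower and 16 higher with total-read scaling, beside the same shares of all tested genes, 33.0% and 33.5%, and 11.1% and 66.8%. Fyco1, a PI3P-binding adaptor for autophagosome transport, had a log2 fold change of −0.78 and Zfyve9, an endosomal FYVE protein, of −0.66 (adjusted p = 0.00018 and 0.00084 in limma), and neither was called with total-read scaling. Zfyve16, another endosomal FYVE protein, and Snx1, a retromer-associated sorting nexin, rose by log2 fold changes of 1.06 and 0.72 (adjusted p = 0.00023 and 0.00013 in limma) and were higher under both scalings. Of the 11 genes of PI3P turnover, the myotubularin phosphatases and the PIKfyve complex, 5 were called lower and 0 higher in normalized counts (median −0.25), and 2 lower and 7 higher with total-read scaling. Both that stayed lower were myotubularins, Mtmr7 (157 ± 7.41 against 72.2 ± 4.90 normalized counts, log2 fold change −1.11) and Mtmr4 (983 ± 29.9 against 481 ± 50.2, −1.03; SD, n = 3 each), with an adjusted p of 0.00012 and 3.6e-05 in limma.

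Class 2 PI3K enzymes, the other route to PI3P, gave no rise in normalized counts. Pik3c2a had 527 ± 70.3 in WT and 474 ± 19.6 in Vps15LKO livers (log2 fold change −0.14, 95% interval −0.41 to 0.12), while Pik3c2b had 110.1 ± 25.7 and 110.5 ± 13.1 (0.03, 95% interval −0.43 to 0.49). Pik3c2g, the form found mainly in liver, fell from 93.2 ± 2.01 to 41.5 ± 6.51 normalized counts (log2 fold change −1.16, adjusted p = 0.00046 in limma; SD, n = 3 each). With total-read scaling Pik3c2g was again lower (−0.45), while Pik3c2a and Pik3c2b were called higher (0.58 and 0.75).

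**Figure D4:**
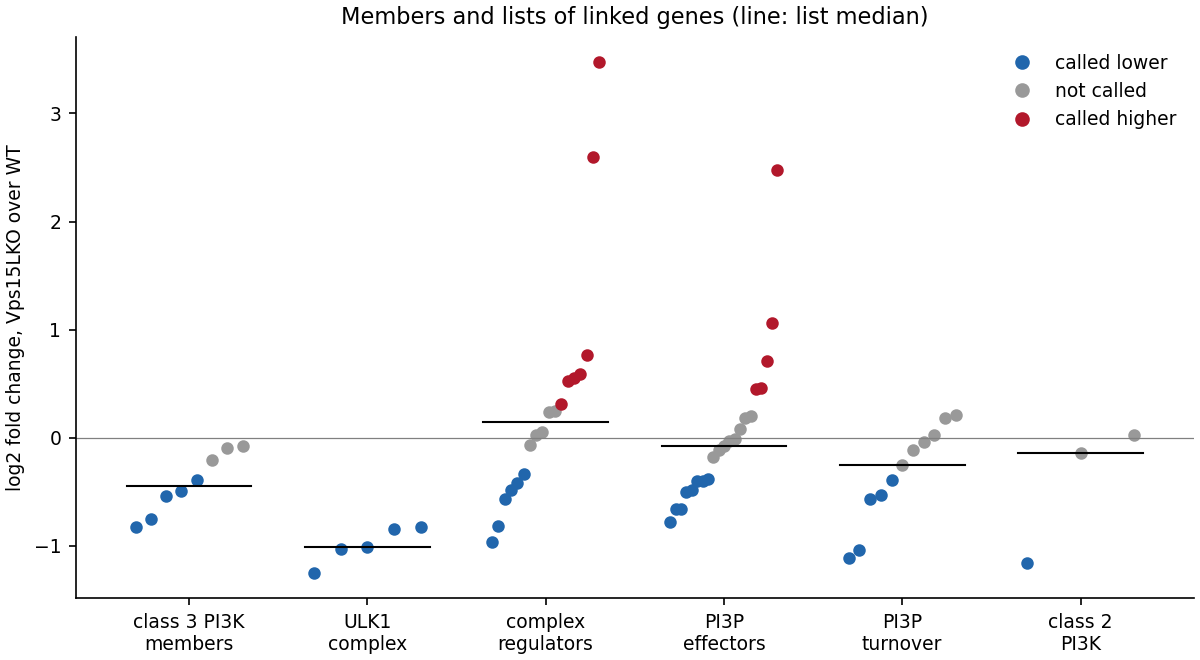
log2 fold change in normalized counts (Vps15LKO over WT) of each tested gene, for the 8 members and 5 lists of linked genes, coloured by the call in limma, with list medians as lines. All 5 ULK1 complex genes and 5 of the 8 members are called lower, whereas the lists of regulators and PI3P effectors hold calls in both directions. Of all tested genes, 33.0% are called lower and 33.5% higher. With total-read scaling, 2 ULK1 genes and 0 members are called lower, and 4 members and 14 regulators are called higher. The shares of all tested genes are then 11.1% lower and 66.8% higher.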

How the data were processed

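Per the labels and the methods, the authors cleaned reads with SOAPnuke, aligned them with HISAT2 to GRCm38, assigned them to Ensembl genes with featureCounts and divided the counts by 1 DESeq2 size factor per library. The versions, strand and multi-mapping settings are not given in the sources used here. The deposited values are therefore a signal of normalized counts. Divided by the value of 1 read, 100% of the values above 0 came out whole in every library (within 0.01 read, with a proportionally wider tolerance for high counts), and these reads were recovered, 16137093 to 18110223 per library. Replicate libraries differed beyond sampling noise (chi-square per gene 14.0 to 36.4), so none was a copy. The labels give 3 libraries per genotype, each from 1 mouse by the methods.

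Genes reaching 20 normalized counts in 3 or more of the 6 livers were tested on log2(normalized count + 1) with limma 3.58.1 (trend, R 4.3.3). Fold changes are on this scale. Lone ratios were compared by an exact permutation test. Gene models came from GENCODE M21 (GRCm38), which matched 55141 genes, and promoters from RefSeq. Of the lists, 1 symbol (Tf) was matched as a synonym (Trf). The members, lists and ratios were chosen with earlier results of these data known. Genes named from a list are all members, the class 2 PI3K genes, and in the other lists up to 2 genes called lower and 2 called higher with the largest changes and a mean of at least 100 normalized counts. The fit was tested on simulated data. Alternatives were other pseudocounts, filters, scalings and thresholds, edgeR 4.0.16 and DESeq2 1.42.0 on recovered reads, each liver left out, and a replicate block. Tables and plots used Python 3.11.15, pandas 2.3.3 and matplotlib 3.10.9.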

Additional observations from a re-analysis of the deposited data

How the results depend on the processing

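Of 18 alternatives, 2 changed the number of members called: total-read scaling (all libraries set to 1 common read total), to 0 lower and 4 higher, and upper-quartile scaling, to 6 lower with Becn1 (−0.30). Of all 15430 tested genes, total-read scaling called 1712 lower and 10300 higher, and upper-quartile scaling 5835 and 4692. The main fit called 5099 lower and 5163 higher. Under total-read scaling the sign of the log2 fold change turned for Pik3r4 (0.19), Pik3c3 (0.33), Becn1 (0.52), Nrbf2 (0.23), Ambra1 (0.63) and Rubcn (0.65), by the construction of the scaling, which raised the median of all tested genes to 0.70. Ambra1 also changed sign, uncalled, with quantile normalization (0.01). Under the other 17 alternatives the log2 fold change of Pik3r4 stayed between −0.63 and −0.45 with an adjusted p of at most 0.013. On the recovered reads, edgeR gave Pik3r4 a log2 fold change of −0.50 and DESeq2 −0.54. The number of all genes called lay between 9098 and 10222 with each liver left out, with 5 members called lower each time. The difference of the log2 ratio of Atg14 to Uvrag ran from −0.15 to 0.05 with each liver left out, and was 0.053 without WT replicate 3, and the other 5 ratios kept their direction. Same-numbered livers did not deviate together (correlations of −0.01, −0.01 and 0.05). These correlations cannot tell whether same-numbered mice shared a litter or were handled together. With replicate number as a block, 10048 genes and 5 members were called, and the adjusted p of Pik3r4 in limma was 0.0039. The members had 232 to 1075 reads per library, and counting error and the spread between mice were not separated.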
